A study of Macaca mulatta with 16 samples.

Results

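The glucocorticoid receptor, the enzymes that set how much active steroid reaches it and a panel of its direct targets were followed in fetal rhesus macaque lung after intraamniotic inflammation, with and without maternal betamethasone, and at term. The members were the rows of the deposited gene table whose rhesus Ensembl identifier carries 1 of 10 symbols: the receptor NR3C1, the prereceptor enzymes HSD11B1 and HSD11B2, and the targets FKBP5, TSC22D3, PER1, KLF9, ZBTB16, DUSP1 and SGK1. All 10 were found among the 22515 genes of the table, and all 10 were among the 19199 genes with enough reads to be tested.

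Whole lung RNA from 16 fetuses was sequenced, 1 library per fetus. The 4 preterm controls (131 to 135 days of gestation at delivery) and the 2 term controls (156 and 157 days) received no intervention. In the LPS 16h group, 4 fetuses were delivered 16 hours after 1 mg of bacterial lipopolysaccharide (LPS) was injected into the amniotic fluid, at 130 to 131 days. In the LPS 5d group, 3 fetuses were delivered 5 days after the same dose, at 131 to 134 days. In the LPS + Beta-Ac 5d group, 3 fetuses received the same LPS dose while the dam was given an intramuscular dose of 0.125 mg/kg betamethasone-acetate (Beta-Ac), a slow-release ester of a synthetic glucocorticoid, with delivery 5 days later at 131 to 132 days. No animal given betamethasone without LPS was analysed here, so the steroid can be read only as an addition to LPS. LPS was given as 1 injection, so these fetuses do not model an infection that is still present at birth.

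Glucocorticoids cross the cell membrane and bind NR3C1, which is held in the cytoplasm by heat shock proteins and cochaperones and then moves to the nucleus, where it raises or lowers the transcription of its targets. The enzyme HSD11B1 regenerates active cortisol from inert cortisone, and HSD11B2 does the reverse and shields tissues from maternal and fetal cortisol. In the fetal lung this pathway drives thinning of the mesenchyme and the onset of surfactant production, which is why glucocorticoids are given before preterm birth. Several targets, FKBP5 and DUSP1 among them, are also reached by inflammatory or stress signals, so a change in 1 target does not name its inducer.

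Library totals ran from 20169363 to 48052891 counts. The LPS 16h libraries were the deepest (30596371 counts or more) and no other library exceeded 28348816, and the labels give no batch, so depth and this group cannot be told apart. Levels are given as CPM, read counts relative to a library total that was scaled by TMM, a trimmed mean of gene ratios between libraries. Differences are log2 fold changes from a linear model fitted with limma to all genes, with p-values adjusted over the 19199 genes tested. A gene was called when its adjusted p was below 0.05 and its change was at least 2-fold. The comparisons with the preterm controls share those 4 animals, and in whole lung fewer cells of a type and less RNA per cell cannot be told apart. The labels give no litter, cohort or day, so any effect of these cannot be separated from that of treatment. The paper describes the LPS 16h dams as another group of animals. The p-values set each difference against the spread between fetuses within groups, estimated over all groups together.

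The 7 alveolar type 2 cell markers summed to between 6478 and 30150 CPM in every lung, as the lung label requires. The summed CPM of 12 myeloid markers moved most with exposure. It was 156.5 to 271.5 in the preterm controls, with the macrophage receptor gene MARCO at 0 in all 4, and 339 to 473 at term. In LPS 16h it was 2319 to 2945, in LPS 5d 298 to 309 and in LPS + Beta-Ac 5d 486 to 852. Most of the LPS 16h mean sum of 2530 CPM came from S100A9, CD14 and S100A8, with means of 958, 562 and 505 CPM.

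FKBP5 was the member that changed most at 16 hours after LPS, and HSD11B2 fell in the same lungs. ZBTB16 was higher in both groups given LPS alone. At 5 days NR3C1 was modestly lower with or without betamethasone. FKBP5 stood slightly higher in each of the 3 lungs given betamethasone than in every preterm control or LPS 5d lung. Its difference from LPS 5d did not pass over all genes (limma, adjusted p = 0.631). An untreated term lung read 24.8 CPM, within the range of those 3 lungs. How many of all genes separate in the same way was not counted. At term no member was called. The plot of levels by animal shows these values for the 10 genes.

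**Figure D1:**
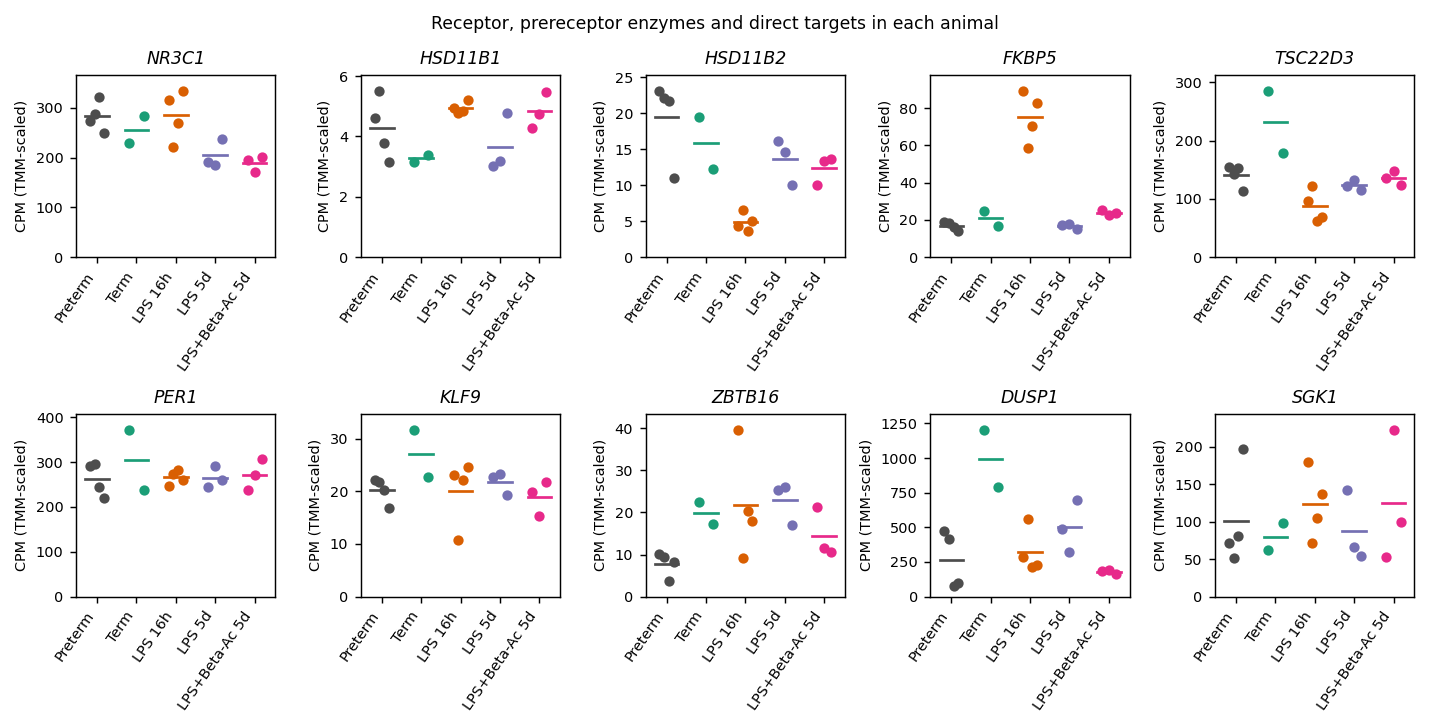
Levels of the 10 genes (CPM, TMM-scaled, linear axes from 0) in each of the 16 fetuses, grouped by treatment. Each point is 1 fetus and each bar the group mean. FKBP5 lies between 58.4 and 89.0 CPM in the 4 LPS 16h lungs and does not exceed 25.2 CPM in any other lung, and HSD11B2 does not exceed 6.62 CPM in LPS 16h.

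The receptor gene NR3C1 (ENSMMUG00000000421) was read at 274, 288, 321 and 249 CPM in the preterm controls (283 ± 29.9, SD, n = 4). The LPS 16h lungs covered the same range, at 316, 221, 269 and 333 CPM (285 ± 50.7, SD, n = 4). The 2 term lungs, at 229.5 and 283 CPM, also overlapped the preterm controls. At 5 days after LPS alone, values were 192, 186 and 237 CPM (205 ± 28.2, SD, n = 3). With betamethasone added they were 195, 172 and 202 CPM (189.7 ± 15.6, SD, n = 3). All 6 lungs taken at 5 days lay below the lowest preterm control, and the 2 treated groups overlapped each other.

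The log2 fold change of NR3C1 against preterm controls was -0.47 (SE 0.147, adjusted p = 0.0431) in LPS 5d and -0.58 (SE 0.147, adjusted p = 0.0134) in LPS + Beta-Ac 5d, a 1.38-fold and a 1.49-fold lower level. Neither reached the 2-fold limit. The LPS 5d value sits at the threshold: NR3C1 still passed without preterm control 209 or LPS 5d animal 242, and did not pass without any 1 of preterm controls 092, 101 and 113 or LPS 5d animals 239 and 240, with an adjusted p of up to 0.172. In LPS + Beta-Ac 5d it was lost without animal 249 alone (adjusted p = 0.0901). Adding betamethasone to LPS gave -0.11 (95% confidence interval -0.44 to 0.23, adjusted p = 1), an interval that holds 0. At 16 hours the difference from preterm controls was 0.00 (95% confidence interval -0.29 to 0.28, adjusted p = 0.985). The direct comparison of LPS 16h with LPS 5d gave 0.47 (SE 0.147, adjusted p = 0.0224), although the groups overlapped. That value was lost with library totals (adjusted p = 0.198) and without LPS 16h animal 026 or 038 or LPS 5d animal 239 or 240 (adjusted p up to 0.0971). At term the difference from preterm was -0.15 (adjusted p = 0.703).

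HSD11B1, the enzyme that regenerates active glucocorticoid, was read at few counts, 83 to 208 per library. Preterm controls held 4.62, 5.50, 3.80 and 3.16 CPM and LPS 16h lungs 4.94, 4.77, 4.85 and 5.21 CPM. Term lungs, at 3.16 and 3.39 CPM, lay at the low end of the preterm range. LPS 5d lungs gave 3.01, 3.18 and 4.79 CPM, and LPS + Beta-Ac 5d lungs gave 4.29, 4.74 and 5.47 CPM. The groups overlapped in all 6 comparisons and HSD11B1 passed in none, with log2 fold changes between -0.35 at term and 0.46 for LPS 16h against LPS 5d. Without LPS 5d animal 242 that last difference was 0.66 (adjusted p = 0.0302).

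HSD11B2 (ENSMMUG00000008034), the enzyme that inactivates cortisol, moved the other way from FKBP5. Its preterm levels were 23, 22, 21.7 and 11 CPM (19.4 ± 5.67, SD, n = 4), with animal 209 well below the other 3. In LPS 16h they were 4.30, 6.62, 3.66 and 5.00 CPM (4.89 ± 1.27, SD, n = 4). Every LPS 16h lung was below every preterm control, animal 209 included.

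The fall of HSD11B2 at 16 hours was -1.95 on the log2 scale (SE 0.260, adjusted p = 3.11e-05), a 3.86-fold lower level that ranked 190 from the bottom of the 19199 genes. Without animal 209 the difference was -2.20. LPS 5d lungs held 16.2, 14.6 and 10.1 CPM and LPS + Beta-Ac 5d lungs 10.1, 13.4 and 13.6 CPM. Both groups overlapped the preterm controls through animal 209, and the differences of -0.48 (adjusted p = 0.288) and -0.61 (adjusted p = 0.16) did not pass. Without animal 209 the HSD11B2 difference of LPS + Beta-Ac 5d was -0.86 (adjusted p = 0.0246) and that of LPS 5d -0.74 (adjusted p = 0.056). LPS 16h was lower than LPS 5d by 1.47 on the log2 scale (log2 fold change -1.47, SE 0.281, adjusted p = 0.000835), with no overlap. The term lungs, at 19.5 and 12.3 CPM, lay within the preterm range (log2 fold change -0.27, adjusted p = 0.717).

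FKBP5 (ENSMMUG00000011520) encodes a cochaperone that binds the receptor complex and lowers its affinity for hormone, and it is among the most used readouts of glucocorticoid action. Its preterm levels were tightly grouped at 19.2, 18.2, 16.0 and 13.9 CPM (16.8 ± 2.33, SD, n = 4). At 16 hours after LPS they were 89.0, 58.4, 70.4 and 82.6 CPM (75.1 ± 13.6, SD, n = 4). The lowest LPS 16h lung was thus above the highest lung of any other group.

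The rise was 2.15 on the log2 scale (SE 0.155, 95% confidence interval 1.82 to 2.48, adjusted p = 5.11e-08), or 4.43-fold, and it ranked 626 from the top of all genes tested. LPS 5d lungs were back among the preterm values, at 17.1, 18.1 and 15.1 CPM, and the difference was 0.00 (95% confidence interval -0.36 to 0.36, adjusted p = 0.997). LPS 16h exceeded LPS 5d by 2.15 on the log2 scale (SE 0.167, adjusted p = 2.2e-07). Of the 12 myeloid markers, 9 were called higher in the same LPS 16h lungs, and the library totals were also higher there; with all libraries thinned to the lowest total the rise was 2.13, and the part of the myeloid cells in it was not tested.

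With betamethasone added to LPS, FKBP5 read 25.2, 22.7 and 23.9 CPM (23.9 ± 1.26, SD, n = 3). All 3 values lay above the highest preterm control (19.2 CPM) and above the highest LPS 5d lung (18.1 CPM). The difference from preterm controls was 0.52 on the log2 scale (SE 0.167, adjusted p = 0.0457), a 1.43-fold higher level under the 2-fold limit. That adjusted p ran from 0.0262 to 0.0734 over the alternative settings. Leaving out 1 animal at a time, FKBP5 passed without preterm control 092 (adjusted p = 0.0456) and did not pass without any 1 of preterm controls 101, 113 and 209 or LPS + Beta-Ac 5d animals 248, 249 and 255, with an adjusted p of up to 0.143. The direct comparison with LPS 5d gave 0.51 (95% confidence interval 0.13 to 0.89), which did not pass over all genes (adjusted p = 0.631). The summed myeloid markers were 486 to 852 CPM in these 3 lungs and 298 to 309 CPM in the LPS 5d lungs. Of the 12 markers, 11 were called higher in LPS + Beta-Ac 5d than in preterm controls. Against LPS 5d none was called, though all 12 had a log2 fold change above 0. The part of the myeloid markers in both FKBP5 differences was not tested. Term lungs gave 24.8 and 16.9 CPM, 1 within and 1 above the preterm range. By mean level the groups ran from LPS 16h through LPS + Beta-Ac 5d, term and preterm control to LPS 5d, and only LPS 16h was separate from its neighbour.

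TSC22D3 encodes GILZ, a leucine zipper protein that mediates part of the anti-inflammatory action of glucocorticoids. Preterm controls held 156, 143, 153 and 114 CPM, and LPS 16h lungs held 96.4, 122, 62.0 and 68.5 CPM. Of the LPS 16h lungs, 3 of 4 were below every preterm control. The difference of -0.74 on the log2 scale (SE 0.195, adjusted p = 0.00761) passed the test at less than 2-fold, opposite in sign to FKBP5 in the same lungs. Against LPS 5d the difference was -0.55 (adjusted p = 0.0537), and -0.73 without LPS 16h animal 029 (adjusted p = 0.00504). At 5 days the levels were 122, 132 and 116 CPM after LPS and 136, 148 and 124 CPM with betamethasone added, and neither differed detectably from preterm (log2 fold change -0.19, adjusted p = 0.622, and -0.05, adjusted p = 0.909). The effect of added betamethasone on LPS was 0.14 (95% confidence interval -0.34 to 0.62). At term both lungs, at 285 and 178 CPM, exceeded the highest preterm control, with a log2 fold change of 0.68 (SE 0.239) that did not pass (adjusted p = 0.125).

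PER1 and KLF9, a core clock repressor and a zinc finger transcription factor that glucocorticoids induce rapidly, passed in none of the 6 comparisons. PER1 varied little: 292, 295, 244 and 221 CPM in preterm controls, 247 to 283 CPM in LPS 16h, 246 to 292 CPM in LPS 5d and 237 to 306 CPM in LPS + Beta-Ac 5d. Term PER1 was 371 and 238 CPM. Its log2 fold changes lay between 0.00 and 0.19, and with scaling by library totals alone the 2 comparisons of LPS 16h turned negative. KLF9 was 22.1, 21.8, 20.2 and 16.8 CPM in preterm controls and 31.5 and 22.8 CPM at term, both above the preterm range (log2 fold change 0.41, adjusted p = 0.463). In LPS 16h, KLF9 was 23.0, 10.7, 22.1 and 24.7 CPM, with animal 029 apart from the other 3. At 5 days KLF9 ran from 19.2 to 23.3 CPM after LPS and from 15.3 to 21.8 CPM with betamethasone added.

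ZBTB16 (ENSMMUG00000007085), a zinc finger repressor known as PLZF that glucocorticoids induce in many cell types, was higher after LPS with and without a delay. Preterm controls held 10.2, 9.29, 3.65 and 8.29 CPM (7.86 ± 2.91, SD, n = 4). LPS 16h lungs held 39.5, 9.23, 20.4 and 17.9 CPM (21.8 ± 12.8, SD, n = 4), with animal 029 inside the preterm range. LPS 5d lungs held 25.4, 26.1 and 17.1 CPM (22.9 ± 4.98, SD, n = 3), all above every preterm control.

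Both rises were called. At 16 hours ZBTB16 was 1.38 higher on the log2 scale (SE 0.402, adjusted p = 0.0146), or 2.59-fold. At 5 days it was 1.61 higher (SE 0.435, adjusted p = 0.0227), or 3.05-fold. The 5-day call was lost without preterm control 113 (adjusted p = 0.0621), LPS 5d animal 239 (adjusted p = 0.0821) or LPS 5d animal 240 (adjusted p = 0.0903), while the direction held.

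No further rise of ZBTB16 was detected with betamethasone added. The LPS + Beta-Ac 5d lungs held 21.3, 11.6 and 10.6 CPM, each above the highest preterm control (10.2 CPM), and the difference of 0.91 (SE 0.435, adjusted p = 0.178) did not pass. Against LPS 5d the difference was -0.70 (95% confidence interval -1.70 to 0.29, adjusted p = 1), an interval that holds a marked decrease as well as a small increase. Term lungs, at 22.5 and 17.3 CPM, were both above the preterm range, with a log2 fold change of 1.42 (SE 0.493) that did not pass (adjusted p = 0.126).

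DUSP1, a phosphatase that switches off stress-activated kinases, was the most variable target among the preterm controls, at 473, 417, 74.7 and 97.8 CPM. Term lungs held 1200 and 788 CPM, above every other lung. The log2 fold change at term was 2.32 (SE 0.668, adjusted p = 0.0731), which ranked 113 from the top of all genes but was not called; without preterm control 092 its adjusted p was 0.0439, and without term control 200 it was 0.331. LPS 16h lungs held 285, 561, 216 and 226 CPM, with 3 of 4 inside the preterm range (log2 fold change 0.61, adjusted p = 0.41). LPS 5d lungs held 490.4, 319 and 695 CPM (log2 fold change 1.29 against preterm controls, adjusted p = 0.172) and LPS + Beta-Ac 5d lungs 186, 192 and 160 CPM. Those last 2 groups did not overlap, and the log2 fold change of -1.41 (95% confidence interval -2.77 to -0.06) did not pass over all genes (adjusted p = 1).

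DUSP1 was set beside the immediate early genes, mostly transcription factors such as FOS and EGR1 that respond to many stimuli within minutes. The summed CPM of 10 such genes was 891 and 733 in the preterm controls with high DUSP1 (092 and 101) and 286 and 309 in those with low DUSP1 (113 and 209). It was 4580 and 1640 at term. In LPS 5d it was 844, 595 and 2080, and in LPS + Beta-Ac 5d 648, 350 and 502, where the animal with the lowest sum (249) had the highest DUSP1. LPS 16h lungs stood apart, with sums of 1730 to 3350 at DUSP1 levels of 216 to 561 CPM. How far DUSP1 moved apart from the immediate early genes was not tested.

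**Figure D2:**
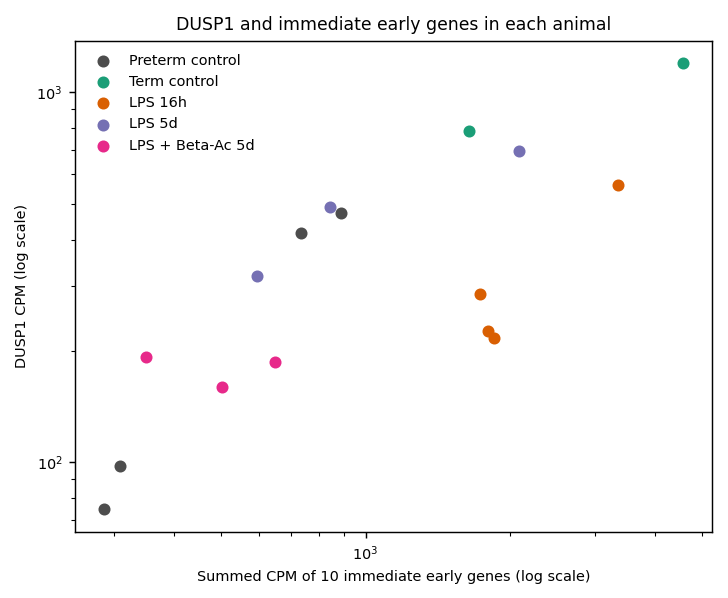
DUSP1 level (CPM, log axis) against the summed CPM of 10 immediate early genes (log axis), 1 point per fetus, coloured by group. The 2 term lungs have the highest DUSP1 (788 and 1200 CPM), and the preterm controls split into 2 with sums of 733 and 891 and 2 with sums of 286 and 309.

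SGK1, a kinase that promotes sodium uptake and is induced by both glucocorticoids and mineralocorticoids, varied too widely within groups to separate them. Preterm controls held 71.4, 52.0, 81.5 and 197 CPM and LPS + Beta-Ac 5d lungs 52.9, 222 and 100 CPM. LPS 16h lungs ran from 72.1 to 179.9 CPM, LPS 5d lungs from 54.6 to 142 CPM and term lungs were at 62.2 and 98.4 CPM. No difference of SGK1 passed, with log2 fold changes between -0.17 and 0.55 and standard errors of 0.491 to 0.602. The 95% confidence interval at 16 hours, -0.64 to 1.47, held a 2-fold increase.

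Counted by comparison, LPS 16h against preterm controls called 2 members higher (FKBP5 and ZBTB16) and 1 lower (HSD11B2) of 10, where 8.3% of all genes tested were called higher and 6.07% lower. The split between higher and lower calls of all genes depended on the scaling: 57.8% of the calls were higher with the scaling used here and 39.4% with library totals alone, which moved the median log2 fold change of all genes from -0.09 to -0.29. The 3 calls held under both. LPS 5d against preterm controls called 1 member higher (ZBTB16) and none lower, where 2.6% of genes were called higher and 2.23% lower.

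LPS + Beta-Ac 5d against preterm controls called 0 of 10 members by limma, where 4.05% of genes were called higher and 2.44% lower. Here 2 members passed the adjusted p at less than 2-fold (NR3C1 and FKBP5) and 3 had an unadjusted p below 0.05. Of all genes, 17.3% passed the adjusted p at any fold, and 5769 of 19199 had an unadjusted p below 0.05. Limma-voom also called 0. Term against preterm called 0 of 10 members, and 0 by limma-voom, where 1.11% of genes were called higher and 0.953% lower. An unadjusted p below 0.05 was reached by 3 members (TSC22D3, ZBTB16 and DUSP1) and by 3625 of the 19199 genes tested.

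The direct test of added betamethasone, LPS + Beta-Ac 5d against LPS 5d, called 0 of 10 members. In it FKBP5 and DUSP1 had an unadjusted p below 0.05, and limma-voom called 0. Of all genes, 0.104% were called higher (20 genes) and 0% lower. At an unadjusted p below 0.05 stood 925 of the 19199 genes tested, 648 higher and 277 lower. A total of about that size arises at this limit even where no gene differs, so the total does not tell how many differ. Whether these changes as a set go beyond chance was not tested. LPS 16h against LPS 5d called FKBP5 higher and HSD11B2 lower, where 8.02% of genes were called higher and 6.61% lower. Here library totals alone gave 38.0% higher calls of all calls in place of 54.8%.

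**Figure D3:**
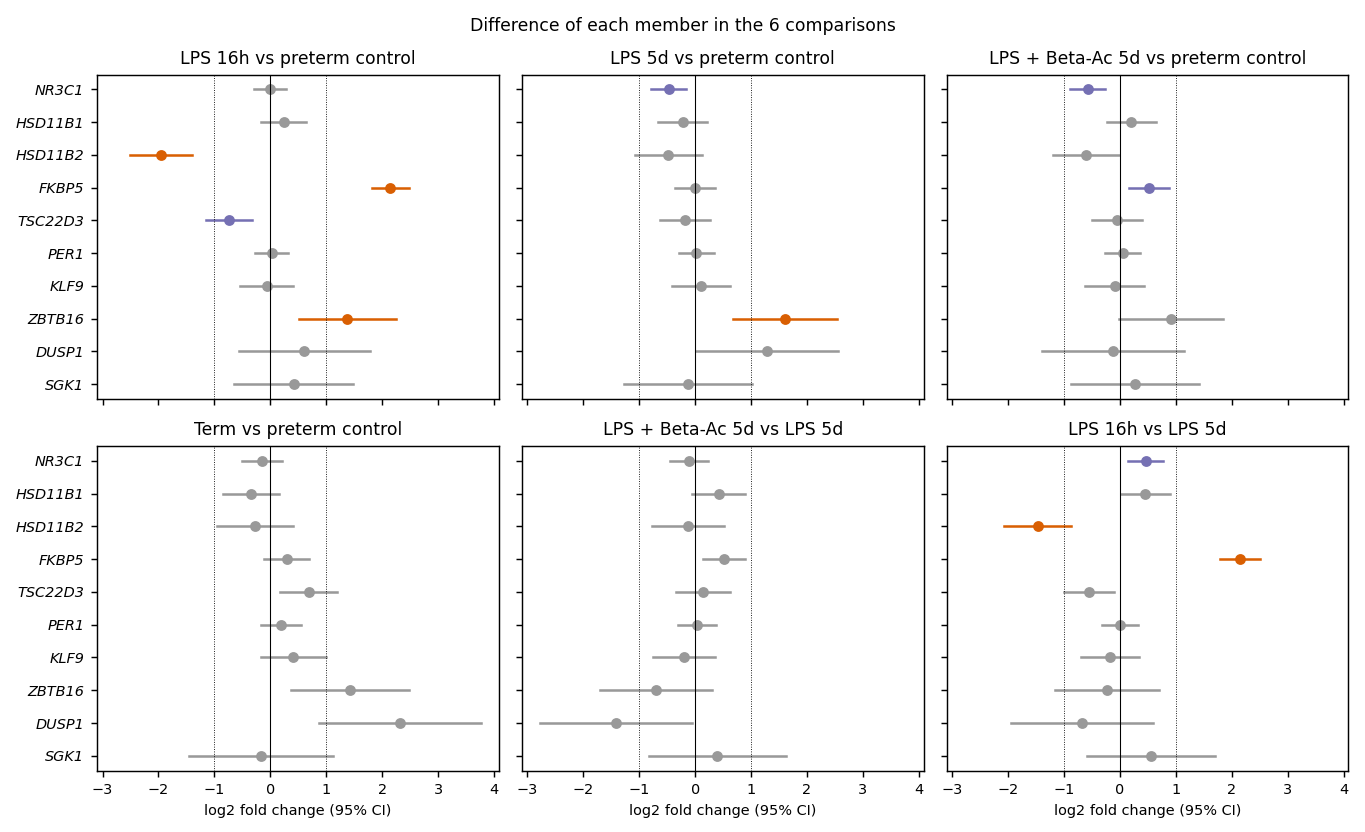
Log2 fold change of each member (point) with its 95% confidence interval (line) in the 6 comparisons, first group minus second. Orange marks called genes, violet those with an adjusted p below 0.05 and less than 2-fold, grey the rest, and dotted lines a 2-fold change. FKBP5 and HSD11B2 lie on opposite sides at 16 hours, and no member is called in the 3 panels on betamethasone or term.

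A further 28 genes known to be induced by glucocorticoids were read beside the members. At 16 hours 10 were called higher and 4 lower, where 8.3% of all genes tested were called higher and 6.07% lower. The list ranged from -2.18 to 7.73 with a median of 0.55, where the median of all genes was -0.09. The changes of largest size were those of MT2A, a metal-binding metallothionein (7.73), IL1R2, the decoy receptor for interleukin-1 (7.46), NFKBIA, the inhibitor of NF-kB (3.75), and CD163, the macrophage receptor for haemoglobin (3.60). MT2A belongs to a family of near-identical genes, so its reads may be shared. Preterm controls held 0.784 to 3.10 CPM of MT2A (18 to 67 counts) and 0.218 to 0.786 CPM of IL1R2 (6 to 17 counts). The size of the log2 fold changes of both genes against preterm controls thus rests on a low baseline. The 4 that were called lower, picked out with their values in view, were RASD1 (-2.18), TFCP2L1 (-1.67), PDK4 (-1.55) and CDKN1C (-1.23). NFKBIA, IL1R2 and CD163 are also raised by inflammatory signals or carried by myeloid cells.

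At 5 days after LPS alone 5 of the 28 were called higher and none lower: IL1R2 (2.28), CD163 (1.59), MT2A (1.41), BCL6 (1.1) and, outside the naming rule, NFKBIA (1.1). In LPS + Beta-Ac 5d, 4 were called higher and none lower: IL1R2 (4.42), CD163 (3.55), MT2A (2.27) and BCL6 (1.17). At term 3 were called higher and none lower: IL1R2 (2.50), CEBPD (1.33) and NFKBIA (1.05). Against preterm controls, the list medians were 0.30 in LPS 5d, 0.30 in LPS + Beta-Ac 5d and 0.43 at term. The median of all genes in those comparisons was between -0.01 and 0. Of all genes, 2.6% were called higher and 2.23% lower in LPS 5d, and 4.05% and 2.44% in LPS + Beta-Ac 5d. At term the shares were 1.11% and 0.953%. Directly against LPS 5d, the list median of LPS + Beta-Ac 5d was 0.0125, with 15 of the 28 genes above 0 and 13 below. LPS 16h against LPS 5d called 10 higher and 5 lower, led by MT2A (6.32), IL1R2 (5.17), RASD1 (-2.82) and ANGPTL4 (2.80). In that comparison 8.02% of all genes were called higher and 6.61% lower.

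CD163 was the only 1 of the 28 called when betamethasone was added to LPS, where 0.104% of all genes were called higher. It read 26.1, 18.3 and 24.5 CPM in LPS 5d and 92.7, 122 and 61.9 CPM in LPS + Beta-Ac 5d, with no overlap. The log2 fold change was 1.97 (SE 0.347, adjusted p = 0.0496), a 3.9-fold higher level. The adjusted p of CD163 ran up to 0.0823 over the alternative settings. With 1 animal left out it passed without LPS + Beta-Ac 5d animal 255 (adjusted p = 0.0215) and did not pass without any other 1 of the 6 (adjusted p 0.13 to 0.251). Of the 12 myeloid markers, 12 had a positive log2 fold change in the same comparison (0.59 to 3.01, median 1.36) and none was called, so how far CD163 moved apart from the myeloid cells was not tested.

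**Figure D4:**
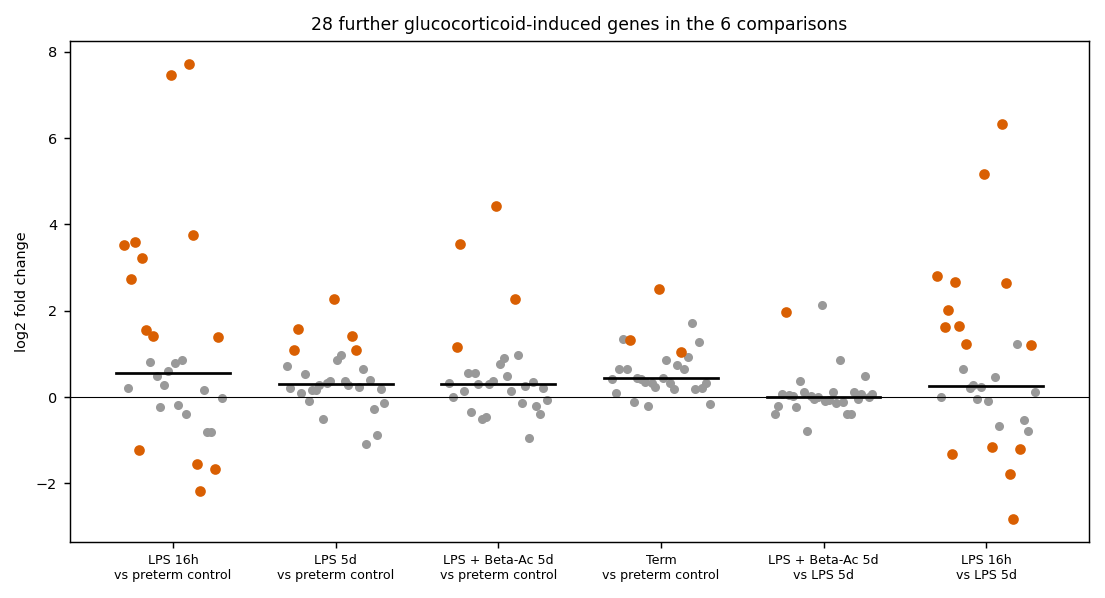
Log2 fold changes of 28 further glucocorticoid-induced genes in the 6 comparisons, 1 point per gene in alphabetical order within each column, with the list median as a bar. Orange points were called. The spread is widest in the 2 comparisons of LPS 16h, reaching 7.73, and 1 gene, CD163, is called for LPS + Beta-Ac 5d against LPS 5d.

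Genes for the proteins that hold and fold the receptor and for steroid supply were next. Of 18 such genes tested, 2 were called higher at 16 hours, the constitutive heat shock protein HSPA8 (1.33) and the cochaperone FKBP4 (1.25), which competes with FKBP5 in the receptor complex, and 1 lower, the steroid reductase SRD5A1 (-1.13). None was called at 5 days with or without betamethasone, at term or when betamethasone was added to LPS, with log2 fold changes between -0.92 and 0.86. LPS 16h against LPS 5d called 3 higher, FKBP4 (1.16), PTGES3 (1.07) and HSPA8 (1.07). The mean of PTGES3 was 251 CPM in preterm controls and 279.6 CPM in LPS 16h. It was 132.5 CPM in LPS 5d and 132.7 CPM in LPS + Beta-Ac 5d. No lung of those last groups exceeded 135.9 CPM, below the lowest preterm control (223.7 CPM). The median of the list at 16 hours was 0.19. The counts at 16 hours lay near the shares of all genes, 8.3% called higher and 6.07% lower. For LPS 16h against LPS 5d those shares were 8.02% and 6.61%.

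Of the 10 immediate early genes, 6 were called higher at 16 hours, led by ZFP36 (3.82), EGR3 (3.19), EGR2 (2.99) and JUNB (2.81). At 5 days JUNB alone was called (1.76), with betamethasone added none was called, and at term 4 were called: FOSB (5.55), FOS (5.16), EGR1 (3.19) and JUNB (2.08). LPS 16h against LPS 5d called 4 higher, led by ZFP36 (2.996). No immediate early gene was called when betamethasone was added to LPS (range -2.51 to 0.37). Against preterm controls, the shares of all genes called higher were 8.3% in LPS 16h and 2.6% in LPS 5d. They were 4.05% in LPS + Beta-Ac 5d and 1.11% at term. For LPS 16h against LPS 5d the share was 8.02%, and for betamethasone added to LPS 0.104%.

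Between animals of the same group, only 1 of the 45 pairs of members varied together beyond the correction. After the group means were subtracted, FKBP5 and KLF9 had a Pearson r of 0.826 (permutation p = 0.00029, adjusted p = 0.013) and a Spearman rho of 0.832 (permutation test, adjusted p = 0.0153) over 16 animals. Without animals 029 and 201, the 2 farthest from the median of FKBP5, r was 0.727. The pair next in strength, HSD11B2 and TSC22D3, had an r of 0.706 that did not pass (permutation test, adjusted p = 0.254).

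**Figure D5:**
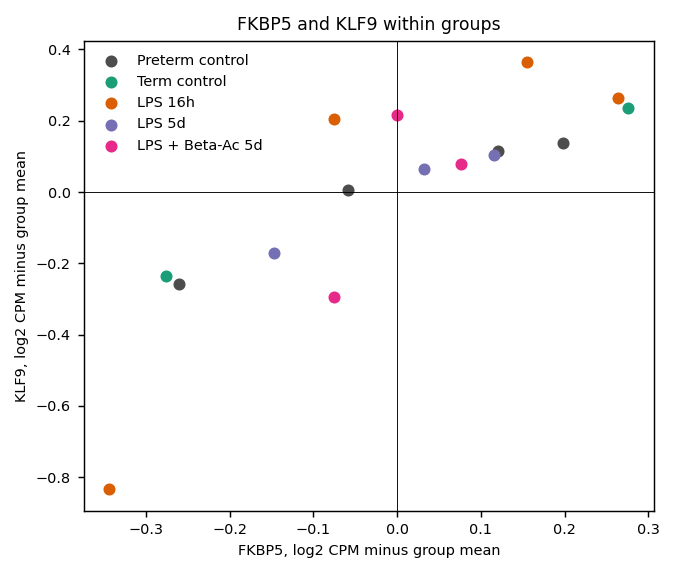
KLF9 against FKBP5 within groups, each as log2 CPM minus the mean of its group, 1 point per fetus (16 points), coloured by group. The points rise together (r of 0.826), and the lowest point is LPS 16h animal 029.

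Genes whose levels over all 16 animals most resembled those of a member were listed by Pearson r of log2 CPM, as a description, since the animals share their group differences. For FKBP5 they were CD274, the checkpoint ligand PD-L1 (0.978), SCIMP, an adaptor of antigen-presenting cells (0.977), and PPP1R15A, a stress-induced phosphatase subunit (0.977). For HSD11B2 they were CFAP92 (0.96), the natriuretic peptide receptor NPR2 (0.953) and CYTH3 (0.947). TSC22D3 was most like CDKN1C, the cell cycle inhibitor p57 (0.915), PKIG (0.9) and RRAD (0.896). NR3C1 was most like PREPL (0.964), PPP2R5E (0.96) and SEL1L (0.954). ZBTB16 was less closely matched, by MACC1 (0.835) and TMEM236 (0.775) among others, as was HSD11B1, by DYSF (0.836), CHST15 (0.766) and MECR (0.763).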

How the data were processed

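The authors aligned poly(A) RNA reads (75 bp, paired end) to transcripts of the rhesus build Mmul_10 with kallisto, summed them to genes with tximport and tested them with DESeq2. The sources used here give no tool or annotation versions. The deposited table holds whole-number counts per Ensembl gene, with no other unit, and its 16 columns were matched to animals by number. Symbols were paired with identifiers for 17256 genes. Genes with at least 0.371 CPM in 2 animals and 15 counts in all were kept (19199 of 22515). TMM scaling (trims of 30 and 5 percent) was applied, and the counts were turned into log2 CPM with a prior count of 2 and fitted with limma 3.58.1 (trend and robust, R 4.3.3), with 1 mean per group, 16 animals and 11 residual degrees of freedom. P-values were adjusted by Benjamini-Hochberg over all genes tested. The script was tested on simulated data. Other scalings, filters, fits and animal omissions were tried, and thinning to the lowest total was added after seeing the data. No 2 libraries of a group were alike within sampling noise (chi-square per degree of freedom 28.3 to 152). The highest values (111, 126.7 and 152.3) were those of LPS 16h animal 029 paired with the other animals of its group. Within-group correlations used 100000 two-sided permutations within groups, adjusted over 45 pairs.

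Members and lists were chosen with earlier results of these data known. Every member is reported in every comparison, and of each other list the called genes of largest size, 4 at most, are named. Lists matched 28 of 28 further induced genes, 20 of 21 receptor complex and supply genes, 15 of 16 clock genes and 10 of 11 immediate early genes. Genome positions are not given, because the reference annotation used here is of another build. The 3 genes with the highest r are named as alike in pattern, except 1 that is not reported here.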

Additional observations from a re-analysis of the deposited data

Results flagged for a closer look

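Each of the 10 genes was checked in the 2 groups of 4 animals for a value standing apart from the other 3, which chance gives in about 1 of 20 such checks. Of 20 checks, 2 found one. HSD11B2 in preterm control 209 was 11 CPM, against 21.7 to 23 CPM in the other 3 preterm controls. KLF9 in LPS 16h animal 029 was 10.7 CPM, against 22.1 to 24.7 CPM in the other 3. The same animal had the lowest FKBP5 (58.4 CPM) and ZBTB16 (9.23 CPM) and the highest TSC22D3 (122 CPM) and DUSP1 (561 CPM) of its group. It also had the lowest NR3C1 (221 CPM), HSD11B1 (4.77 CPM) and SGK1 (72.1 CPM) and the highest HSD11B2 (6.62 CPM) there.

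The effect of LPS differed between 16 hours and 5 days for 2 members, by the direct comparison of both groups in limma. For FKBP5 the effect at 16 hours exceeded that at 5 days by 2.15 on the log2 scale (adjusted p = 2.2e-07), and all 4 LPS 16h lungs were above all 3 LPS 5d lungs. For HSD11B2 the difference was -1.47 (adjusted p = 0.000835), with all 4 below all 3.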

How the results depend on the processing

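The number of members called was compared over limma-voom, median-of-ratios scaling, library totals, a prior count of 0.5, no filter, a fit of only the groups compared, no fold minimum, omission of preterm control 209 with term control 200, and counts thinned to the lowest total (added after seeing the data). It changed by over 1.5 times only with no fold minimum, to 2 in LPS 5d and 2 in LPS + Beta-Ac 5d against preterm controls, and with single animals left out. In LPS 5d it then ran from 0 to 1, with 0 without preterm control 113 or LPS 5d animal 239 or 240, where ZBTB16 was lost. At term it ran from 0 to 1, with 1 (DUSP1) without preterm control 092. Of all genes, no fold minimum gave 7359, 2827, 3317, 766 and 6718 in place of 2758, 928, 1247, 397 and 2810 in LPS 16h, LPS 5d, LPS + Beta-Ac 5d and term against preterm controls and LPS 16h against LPS 5d. Term gave 98 with only the groups compared and 242 without animals 209 and 200, and with 1 animal left out 129 (term control 200), 239 (preterm control 113), 256 (092) and 264 (101), up to 562 (209). LPS + Beta-Ac 5d against LPS 5d gave 20, but 3 by limma-voom, 0 with only the groups compared and 2 to 57 with 1 animal left out, with each of the 6 moving it by over 1.5 times. The cause of these shifts was not tested. The planned edgeR and DESeq2 alternatives were not run. No paired analysis was possible because no animal number is shared between groups.

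Member differences that changed sign passed under neither setting. Against preterm controls, NR3C1 in LPS 16h became 0.04 with median-of-ratios scaling and 0.04 with only the groups compared, PER1 in LPS 16h -0.18 with library totals and FKBP5 in LPS 5d -0.013 with library totals and -0.018 thinned. PER1 in LPS 16h against LPS 5d became -0.188 with library totals and -0.02 thinned. Without animals 209 and 200, PER1 became -0.054 in LPS 16h, -0.058 in LPS 5d, -0.032 in LPS + Beta-Ac 5d and -0.214 at term, FKBP5 -0.085 in LPS 5d and -0.069 at term, and SGK1 0.254 in LPS 5d and 0.551 at term.

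With 1 animal left out, these log2 fold changes crossed 0. In LPS 16h against preterm controls, NR3C1 ran from -0.086 to 0.14, PER1 from -0.054 to 0.085 and KLF9 from -0.19 to 0.236. In LPS 5d, FKBP5 ran from -0.085 to 0.075, PER1 from -0.058 to 0.081 and SGK1 from -0.545 to 0.254. In LPS + Beta-Ac 5d, TSC22D3 ran from -0.149 to 0.015, PER1 from -0.043 to 0.141, KLF9 from -0.205 to 0.081, DUSP1 from -0.584 to 0.303 and SGK1 from -0.241 to 0.762. At term, NR3C1 ran from -0.297 to 0.004, HSD11B2 from -0.601 to 0.064, PER1 from -0.134 to 0.506 and SGK1 from -0.498 to 0.221. In LPS + Beta-Ac 5d against LPS 5d, NR3C1 ran from -0.173 to 0.004, HSD11B2 from -0.327 to 0.017, PER1 from -0.065 to 0.118 and SGK1 from -0.137 to 0.895. In LPS 16h against LPS 5d, PER1 ran from -0.052 to 0.073, KLF9 from -0.295 to 0.103 and ZBTB16 from -0.58 to 0.115.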

Other observations

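Of 15 clock genes other than PER1, 2 were called higher and 1 lower in LPS 16h against preterm controls, 2 higher in LPS 5d, 2 higher and 1 lower in LPS + Beta-Ac 5d and 1 higher at term. The shares of all genes called higher and lower were 8.3% and 6.07%, 2.6% and 2.23%, 4.05% and 2.44%, and 1.11% and 0.953% in those comparisons. CLOCK, the activator of the core clock, was the 1 member of this list called in 3 of the comparisons with preterm controls: it read 2.53, 4.58, 3.30 and 5.24 CPM in preterm controls, 11.7, 12.3 and 15 CPM in LPS 5d, 12.2, 12.1 and 7.40 CPM in LPS + Beta-Ac 5d and 6.84 and 18 CPM at term. Its log2 fold changes were 1.76, 1.43 and 1.55. In LPS 16h, where CLOCK was not called, it read 8.21, 4.13, 10.7 and 7.53 CPM, with only animal 029 inside the preterm range. BHLHE41, a repressor of the clock, was 2.54 higher in LPS 5d and 4.24 higher in LPS + Beta-Ac 5d, from preterm levels of 0.0462 to 0.618 CPM. HLF, an output regulator of the clock, was called lower with betamethasone added to LPS (-1.06 against preterm controls, levels 8.39, 10.6 and 15.2 CPM against 19.8 to 26.7 CPM); in LPS 5d it was 0.88 lower (log2 fold change -0.88, adjusted p = 0.0403), under the 2-fold limit. At 16 hours BHLHE40 (2.27) and NPAS2 (1.02) were called higher and DBP (-1.28) lower, and LPS 16h against LPS 5d called BHLHE40 (2.31) and NPAS2 (1.18) higher and DBP (-2.002) lower. No clock gene was called when betamethasone was added to LPS. The labels give no time of day at delivery, so time of day and group cannot be told apart.

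Calls among cell type markers against preterm controls can be read beside the same shares of all genes. Myeloid markers were called higher for 9 of 12 genes in LPS 16h and 6 of 12 in LPS 5d. In LPS + Beta-Ac 5d they were called higher for 11 of 12, and at term for 5 of 12. Alveolar type 2 markers were called higher for 3 of 7 genes in LPS 16h, 3 of 7 in LPS 5d, 4 of 7 in LPS + Beta-Ac 5d and 0 of 7 at term. Alveolar type 1 markers were called lower for 3 of 5 genes in LPS 16h, and for 0 of 5 at 5 days in either group or at term, where 1 of 5 was called higher. Mesenchymal markers were called lower for 1 of 6 genes in LPS 16h, 0 of 6 in LPS 5d, 2 of 6 in LPS + Beta-Ac 5d and 3 of 6 at term. Cycling cell markers were called lower for 0 of 6 genes in LPS 16h, 6 of 6 in LPS 5d, 3 of 6 in LPS + Beta-Ac 5d and 6 of 6 at term. Their part in the levels of the receptor and its targets was not tested.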
